A study of Homo sapiens with 6 samples.

Results

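Sterol and fatty acid synthesis was followed through 31 genes of the pathway, taken by symbol from the 16000 genes listed in both of the 2 deposited count tables. All 31 were found and all 31 passed the filter on low counts; no threshold on their values was used to choose them. The sterol branch has 18 of them. ACAT2, HMGCS1, MVK, PMVK, MVD, IDI1 and FDPS carry acetyl-CoA through mevalonate to farnesyl diphosphate, and FDFT1, SQLE, LSS, CYP51A1, TM7SF2, MSMO1, NSDHL, HSD17B7, EBP, SC5D and DHCR7 carry it through squalene and lanosterol to cholesterol. The fatty acid branch has 9. ACLY and ACSS2 supply cytosolic acetyl-CoA, ACACA and FASN build palmitate, and ELOVL2, ELOVL6, SCD, FADS1 and FADS2 lengthen and desaturate it and other fatty acids. The other 4 are the transcription factor genes SREBF1 and SREBF2, their inhibitor INSIG1 and the sterol carrier STARD4.

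The libraries came from 6 human lung adenocarcinoma lines, with 1 library per line. PC-9GR and PC-9ER were set against PC-9, from which they are named, and HCC827GR and HCC827ER against HCC827; 1 label reads HCC82GR and was taken as HCC827GR. PC-9 and HCC827 carry activating mutations of the growth factor receptor EGFR, and the series describes the derived lines as having acquired resistance to EGFR kinase inhibitors and asks which signalling pathways account for it. What GR and ER stand for, whether a derived line is 1 clone, and whether drug was in the medium at harvest are not given in the sources used here. All lines were kept in RPMI-1640 with 10% fetal bovine serum, which brings lipoprotein cholesterol and fatty acids of its own.

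Cells make cholesterol and fatty acids from the same acetyl-CoA, and both branches are controlled by the sterol regulatory element-binding proteins. These factors are held in the endoplasmic reticulum by INSIG proteins while sterols are plentiful. When sterols run low they are cut free and switch on the enzymes. SREBF2 mainly serves the sterol genes, and SREBF1 mainly serves the fatty acid genes. INSIG1 is itself a target, so its transcript is often read with those of the enzymes.

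Promoter sequence was looked at because the factors act on short elements close to the start site. Of the 31 genes, 27 had an entry in the RefSeq promoter table (GRCh38.p14) and were searched over the 250 bases before each start as RefSeq gives it, which for the 4 genes shown lies inside the gene span printed with the levels; ACAT2, FASN, FDFT1 and SQLE were not analysed here. The core of a sterol regulatory element with 1 base left free, CACNCCAC, was found on either strand in 6 of the 27 (IDI1, SC5D, SREBF2, INSIG1, ACACA and SCD), or 22.2%, against 5.89% of the 27305 genes searched, counting a gene if any of its promoters matched. CCAAT, the box bound by NF-Y, was found in 20 of 27 (74.1%; all genes 37.0%), in 13 of the 15 sterol enzymes searched and 4 of the 8 fatty acid enzymes. The G-rich letters GGGCGG, bound by SP1, were found in 26 of 27 (96.3%; all genes 46.2%). The patterns were chosen after the sequences had been seen, and a match is no evidence of binding. The 4 promoters shown belong to regulators and enzymes to which the results return, with CACNCCAC and CCAAT of either strand in capitals: SREBF2 (chr22:41832855-41833104, plus strand), INSIG1 (chr7:155297628-155297877, plus strand), HMGCS1 (chr5:43313413-43313662, minus strand) and SCD (chr10:100346983-100347232, plus strand).
SREBF2: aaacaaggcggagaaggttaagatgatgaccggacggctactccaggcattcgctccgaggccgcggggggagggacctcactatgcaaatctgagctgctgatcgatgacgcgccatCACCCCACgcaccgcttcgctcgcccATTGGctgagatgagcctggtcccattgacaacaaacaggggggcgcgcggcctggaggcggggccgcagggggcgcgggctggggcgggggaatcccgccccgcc
INSIG1: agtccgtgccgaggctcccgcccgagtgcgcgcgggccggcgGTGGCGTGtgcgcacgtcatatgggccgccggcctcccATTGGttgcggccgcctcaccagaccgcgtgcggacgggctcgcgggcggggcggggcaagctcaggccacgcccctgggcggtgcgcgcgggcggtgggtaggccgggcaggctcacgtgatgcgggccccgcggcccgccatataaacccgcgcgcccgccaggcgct
HMGCS1: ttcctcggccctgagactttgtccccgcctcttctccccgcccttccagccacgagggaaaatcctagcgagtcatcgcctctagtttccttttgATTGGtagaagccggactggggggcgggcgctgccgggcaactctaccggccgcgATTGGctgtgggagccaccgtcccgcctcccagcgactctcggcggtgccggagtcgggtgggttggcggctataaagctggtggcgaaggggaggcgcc
SCD: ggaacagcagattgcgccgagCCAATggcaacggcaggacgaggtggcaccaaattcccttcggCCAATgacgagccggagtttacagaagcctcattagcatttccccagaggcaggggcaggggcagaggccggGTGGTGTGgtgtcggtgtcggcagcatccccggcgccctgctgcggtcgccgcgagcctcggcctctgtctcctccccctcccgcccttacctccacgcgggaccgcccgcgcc
SREBF2, INSIG1 and SCD each hold 1 CACNCCAC core and HMGCS1 holds none. HMGCS1 and SCD each hold 2 CCAAT boxes, and SREBF2 and INSIG1 hold 1 each.

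Levels are given in CPM, read counts scaled to 1000000 per library, for which total counts over the shared genes ran between 14529347 and 17832888. There were 2 libraries that stood apart. Transcripts of ribosomal proteins took 16.1% of the counts of HCC827ER and 5.87% to 8.52% of those of the remaining lines, and the median log2 ratio to HCC827 over the 13492 tested genes was -0.33, whereas it lay within 0.05 of 0 in the other pairs. CPM and pair ratios are printed without correction for this shift, so those of HCC827ER need to be read beside that median. The library labelled PC-9GR differed from PC-9 by at least 2-fold in 21.1% of tested genes downward and 19.6% upward. For PC-9ER these shares were 7.46% and 5.73%. The epithelial markers EPCAM and KRT19 were at 1.91 and 13.1 CPM in PC-9GR, against 384 and 1939 CPM in PC-9. CDH1 (56.08 against 321.8 CPM) and KRT7 (2178 against 2818 CPM) were also lower there. KRT8 (3635 against 2569 CPM) and KRT18 (2451 against 1784 CPM) were higher. All 6 epithelial markers were lower than in HCC827 in both HCC827GR and HCC827ER. KRT19 was at 224.9 CPM in HCC827GR and 583.2 CPM in HCC827ER, against 2159 CPM in HCC827. EPCAM was at 28.98 and 106.9 CPM in these lines, against 460.3 CPM in HCC827. STARD4 and MID1IP1 were expressed in PC-9GR and had 0 counts in PC-9ER and PC-9. Whether PC-9GR derives from the PC-9 cells sequenced here was not tested, so its values beside PC-9 are differences between 2 libraries. Several results that it decides are also given without it, but the DESeq2 and limma-voom fits were not repeated without it. The epithelial list summed to 5640 to 16959 CPM in all lines. Of the other marker lists, 4 of 5 fibroblast genes, 2 of 4 leukocyte genes listed and 2 of 4 endothelial genes stayed under 1 CPM in every line. The fibroblast exception was COL1A1, at 2.49 to 41.0 CPM across the lines. The leukocyte exceptions were CD68, at 21.75 to 127 CPM, and CD14, at 5.05 CPM in PC-9GR. PC-9ER and PC-9 had the endothelial transcripts CDH5 (32.8 and 151 CPM) and PECAM1 (22.7 and 68.7 CPM), which were at 0.112 and 0 CPM in PC-9GR. The part of these transcripts in the results was not tested.

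The 4 derived lines were first compared with their 2 parents together. No gene passed the edgeR quasi-likelihood test with line of origin as a block: 0 of the 31 and 0% of 13492 tested genes at an adjusted p under 0.05, and HMGCS1 was the only 1 of the 31 under an unadjusted 0.05 (all genes 2.53%). DESeq2 called 1 of the 31, HMGCS1 (adjusted p = 0.0358; all genes 0.23%), with 3 under an unadjusted 0.05 (all genes 5.52%), and limma-voom called none (all genes 0%), with HMGCS1 and INSIG1 under an unadjusted 0.05 (all genes 3.63%). In the edgeR fit 25 of the 31 had a negative log2 fold change and 6 a positive one, with a median of -0.50, beside 0.04 over all tested genes. Each line has 1 library, so the spread in these tests is that between lines which each fit leaves over, and p-values say nothing of repeat cultures. In these bulk libraries, fewer cells with a transcript and less of it per cell cannot be told apart. Without PC-9GR the edgeR count was again 0 of 31 (all genes 0%), with FASN, HMGCS1, INSIG1 and SREBF1 under an unadjusted 0.05 (all genes 4.27%).

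Counted pair by pair, 9 of the 31 had a lower level than the parent in all 4 derived lines (all genes 12.4%), and none had a higher level in all 4 (all genes 9.92%). The 9 were ACAT2, HMGCS1, MVK, CYP51A1, NSDHL, HSD17B7 and SC5D of the sterol branch, the fatty acid synthase FASN, and INSIG1. The pairs of a parent share its library, so these are not independent counts. With TMM scaling (trimmed mean of M-values), under which the median of all tested genes in HCC827ER is 0, the count was again 9 (all genes 11.5%), with SQLE in place of ACAT2. Over the 3 pairs that leave out PC-9GR it was 15 (all genes 17.4%), and it was 9 without PC-9ER (all genes 19.1%), 10 without HCC827GR (all genes 23.6%) and 16 without HCC827ER (all genes 15%).

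**Figure D1:**
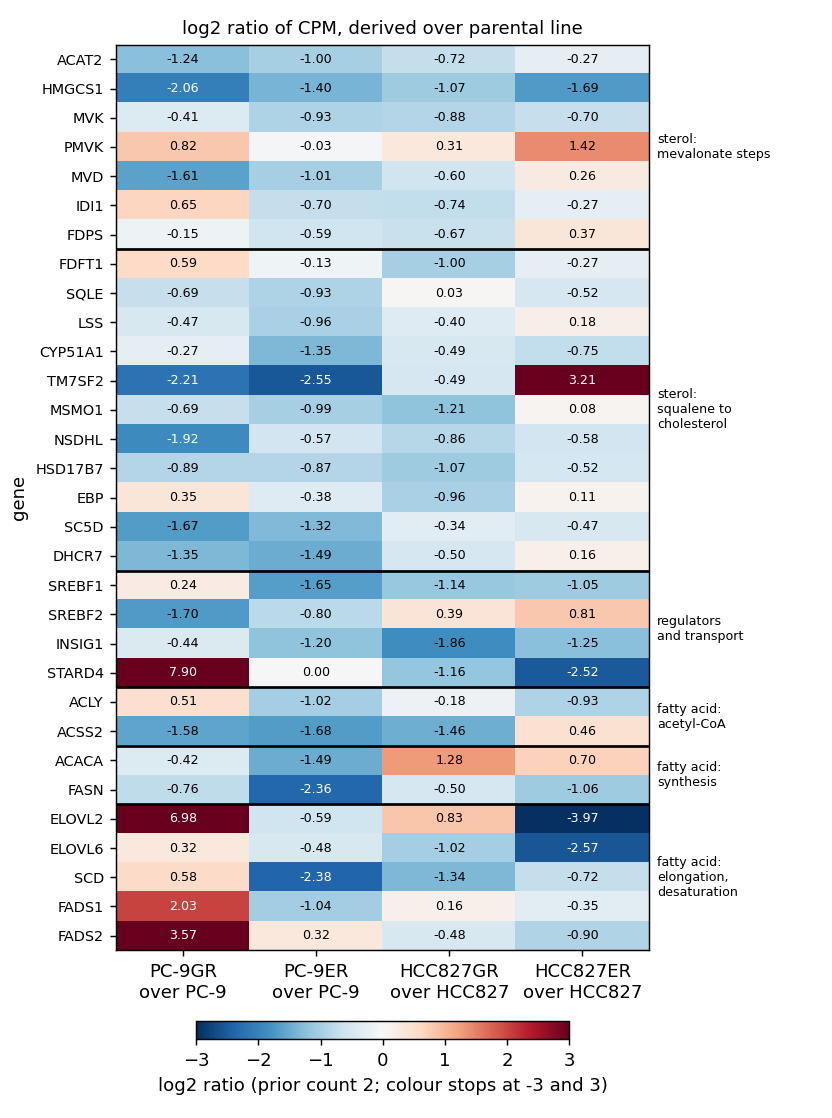
Log2 ratio of CPM of each derived line over its parent for the 31 genes in rows, grouped by role, with the 4 pairs in columns; red is higher and blue lower in the derived line, and colour stops at -3 and 3. PC-9ER is lower in 29 of 31 rows, while PC-9GR is blue in most sterol rows and red in all 5 elongation and desaturation rows; the 0.00 of STARD4 in PC-9ER stands for 0 counts in both libraries.

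Among the mevalonate enzymes HMGCS1 stood lowest against its parents. HMGCS1 (NCBI gene 3157, chromosome 5, 43289395 to 43313512, minus strand, GRCh38), which condenses acetyl-CoA units into HMG-CoA, had 228 CPM in PC-9GR and 360 CPM in PC-9ER, against 950 CPM in PC-9, and 75.9 CPM in HCC827GR and 49.3 CPM in HCC827ER, against 159 CPM in HCC827. Every derived line lay below its parent, and HCC827 itself lay below both PC-9 derivatives. The fitted log2 fold change was -1.46 ± 0.34 (SE; unadjusted p = 0.00541, adjusted p = 0.999, edgeR). ACAT2, the cytosolic thiolase that precedes it, had 83.3 and 98.5 CPM in PC-9GR and PC-9ER, against 197 CPM in PC-9, and 38.9 and 53.2 CPM in HCC827GR and HCC827ER, against 64.2 CPM in HCC827. Its ratio in HCC827ER, -0.27 on the log2 scale, was smaller than the shift of all genes there. MVK, mevalonate kinase, had 56.0 and 38.9 CPM in the PC-9 derivatives, against 74.5 CPM in PC-9, and 20.9 and 23.7 CPM in the HCC827 derivatives, against 38.5 CPM in HCC827 (log2 fold change -0.61 ± 0.36). PMVK, the next kinase of the chain, was above its parent in 3 of the 4 derived lines. It had 21.0 CPM in PC-9GR and 11.6 CPM in PC-9ER, against 11.8 CPM in PC-9, and 16.1 CPM in HCC827GR and 34.9 CPM in HCC827ER, against 12.9 CPM in HCC827, a log2 fold change of 0.84 ± 0.61. Of MVD, IDI1 and FDPS, which finish the isoprenoid unit and join it, none had 1 direction in all 4 pairs, with log2 ratios between -1.61 (MVD in PC-9GR) and 0.65 (IDI1 in PC-9GR).

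Between squalene and cholesterol, 4 of 11 enzymes were lower in every pair (all genes 12.4%). SC5D, a sterol desaturase near the end of the chain, had 45.3 CPM in PC-9GR and 58.0 CPM in PC-9ER, against 145 CPM in PC-9, and 62.9 CPM in HCC827GR and 57.6 CPM in HCC827ER, against 79.8 CPM in HCC827 (log2 fold change -0.90 ± 0.39). NSDHL, which removes a carboxyl group from the sterol ring, had 74.8 and 190.0 CPM in PC-9GR and PC-9ER, against 283 CPM in PC-9, and 68.9 and 83.3 CPM in HCC827GR and HCC827ER, against 125 CPM in HCC827 (-0.82 ± 0.47). The 4 derived lines also lay below their parents for HSD17B7 (-0.72 ± 0.40), the keto-reductase of the same complex, and for CYP51A1 (-0.57 ± 0.40), the cytochrome that demethylates lanosterol. CYP51A1 was lowest against its parent in PC-9ER, with 99.7 CPM against 254 CPM in PC-9. DHCR7, the last reductase, was below its parent in 3 of the 4 derived lines. It had 255 CPM in PC-9GR and 231 CPM in PC-9ER, against 648 CPM in PC-9, and 162 CPM in HCC827GR and 256 CPM in HCC827ER, against 229 CPM in HCC827.

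TM7SF2, a sterol reductase that can stand in for the lamin B receptor, showed the widest range of the branch. It had 16.3 CPM in PC-9GR and 12.8 CPM in PC-9ER, against 75.5 CPM in PC-9, whereas in the other background it had 3.87 CPM in HCC827GR and 52.1 CPM in HCC827ER, against 5.51 CPM in HCC827. HCC827ER was thus 9.46-fold above its parent, while the other 3 derived lines lay below theirs. The difference between the HCC827 and PC-9 changes was 5.02 on the log2 scale and did not pass (adjusted p = 0.9999, edgeR). Leaving out PC-9ER, which leaves PC-9GR alone against PC-9, edgeR called it (adjusted p = 0.0363) with ELOVL2 and STARD4, 3 of the 31 in all (all genes 3.84%). Squalene synthase (FDFT1), squalene epoxidase (SQLE), lanosterol synthase (LSS), the sterol methyl oxidase MSMO1 and the sterol isomerase EBP had log2 ratios between -1.21 (MSMO1 in HCC827GR) and 0.59 (FDFT1 in PC-9GR).

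**Figure D2:**
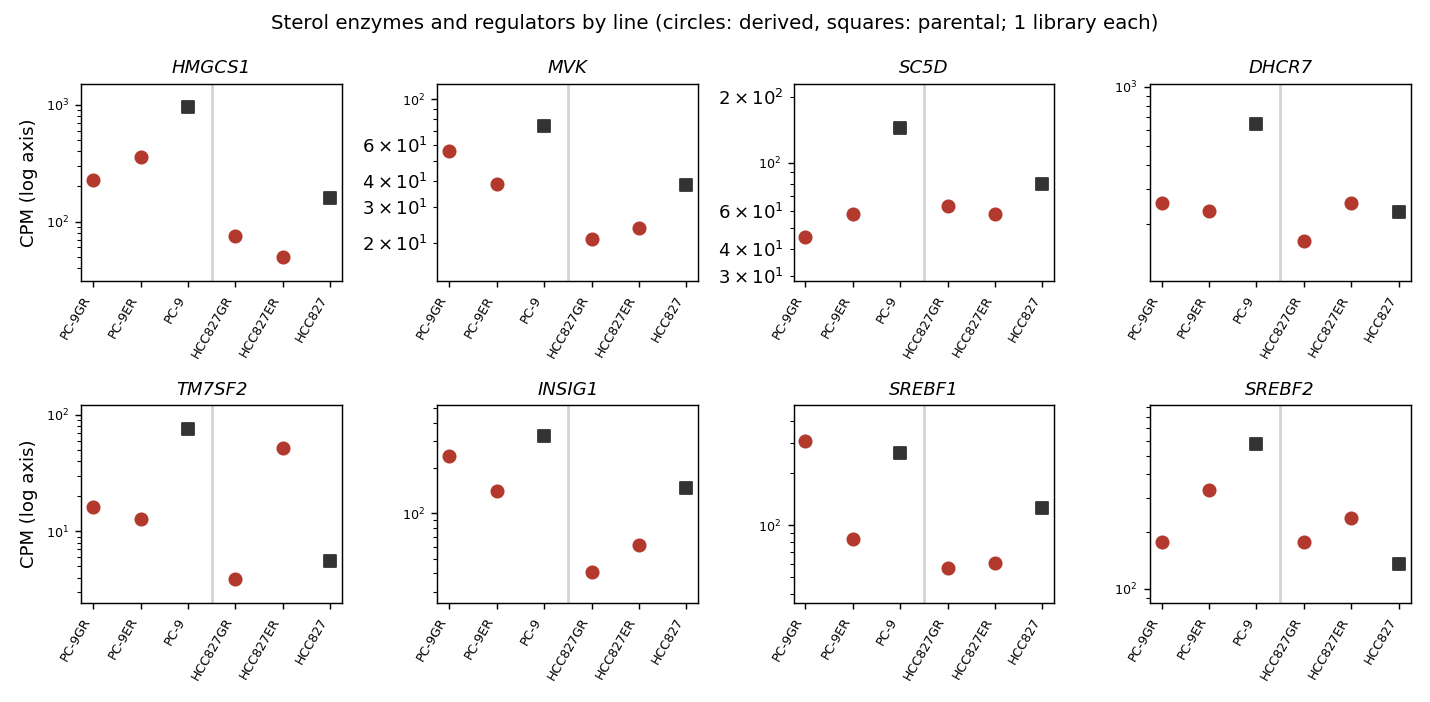
CPM of 8 sterol enzymes and regulators in each line on log axes of their own scale, circles for derived and squares for parental lines, 1 library each. HMGCS1 and INSIG1 circles sit below the square of their parent in both backgrounds, whereas SREBF2 circles sit below PC-9 and above HCC827, and the TM7SF2 circle of HCC827ER is at 52.1 CPM above the 5.51 CPM of HCC827.

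The 4 regulators and carriers did not share a direction. INSIG1 (3638, chromosome 7, 155297776 to 155310235, plus strand) had 239 CPM in PC-9GR and 141 CPM in PC-9ER, against 325 CPM in PC-9, and 40.6 CPM in HCC827GR and 62.0 CPM in HCC827ER, against 147 CPM in HCC827. All derived lines lay below their parents, with a log2 fold change of -1.04 ± 0.44 (unadjusted p = 0.0570, adjusted p = 0.999, edgeR). SREBF2 (6721, chromosome 22, 41833079 to 41907308, plus strand), the factor of the sterol genes, had 177 CPM in PC-9GR and 331 CPM in PC-9ER, against 576 CPM in PC-9, but 177 CPM in HCC827GR and 237 CPM in HCC827ER, against 135 CPM in HCC827. It was below its parent in both PC-9 derivatives and above it in both HCC827 derivatives; the difference between the changes, 1.98 ± 1.03, did not pass (adjusted p = 0.9999, edgeR), and the fit over both parents gave -0.30 ± 0.60. Without PC-9GR that value was 0.09. SREBF1 (6720, chromosome 17, 17810399 to 17837002, minus strand), the factor of the fatty acid genes, had 307 CPM in PC-9GR and 83.0 CPM in PC-9ER, against 260 CPM in PC-9, and 56.9 CPM in HCC827GR and 60.1 CPM in HCC827ER, against 125 CPM in HCC827 (-0.66 ± 0.57). PC-9GR alone lay above its parent.

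STARD4 (134429, chromosome 5, 111496033 to 111512590, minus strand), which moves cholesterol between membranes, had 516 counts (28.9 CPM) in the library labelled PC-9GR but 0 counts in PC-9ER and 0 in PC-9. With 0 counts seen, levels of up to 0.174 CPM in PC-9ER and 0.178 CPM in PC-9 (3 counts) remain possible, so STARD4 was at least 163-fold higher in PC-9GR than in PC-9. In the other background it had 10.4 CPM in HCC827GR and 3.99 CPM in HCC827ER, against 23.4 CPM in HCC827. WDR36, a neighbour on chromosome 5 (111091716 to 111130502, plus strand), had 43.6 CPM in PC-9GR and 39.3 CPM in PC-9ER, against 57.9 CPM in PC-9, and was named after its values had been seen. CAMK4 (111223653 to 111494886, plus strand) lies between WDR36 and STARD4. Its transcript was at 0 counts for PC-9 as well as PC-9ER, and the library labelled PC-9GR held 2 counts. HCC827GR held 40 counts of it, HCC827ER 0 and HCC827 1. These neighbours therefore do not show whether the 0 counts are confined to STARD4. The fitted log2 fold change of STARD4 over both parents, 0.36 ± 3.32, was -1.59 without PC-9GR and -1.62 without PC-9.

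In the fatty acid branch FASN was the only 1 of 9 below its parent in every pair, a share near that of all genes (12.4%). FASN (2194, chromosome 17, 82078333 to 82098332, minus strand), which makes palmitate, had 894 CPM in PC-9GR and 295 CPM in PC-9ER, against 1511 CPM in PC-9, and 627 CPM in HCC827GR and 425 CPM in HCC827ER, against 887 CPM in HCC827 (log2 fold change -0.98 ± 0.53, adjusted p = 0.999, edgeR). ACACA (31, chromosome 17, 37084988 to 37406818, minus strand), the carboxylase that supplies FASN with malonyl-CoA, split by parent. It had 289 CPM in PC-9GR and 137 CPM in PC-9ER, against 385 CPM in PC-9, but 842 CPM in HCC827GR and 565 CPM in HCC827ER, against 347 CPM in HCC827. Both HCC827 derivatives thus had more ACACA and less FASN than HCC827; the difference between the ACACA changes of the parents was 1.97 and did not pass (adjusted p = 0.9999, edgeR). ACLY, which cleaves citrate to acetyl-CoA, had log2 ratios to PC-9 of 0.51 (PC-9GR) and -1.02 (PC-9ER), and to HCC827 of -0.18 (HCC827GR) and -0.93 (HCC827ER). ACSS2, which makes acetyl-CoA from acetate, had 59.6 and 55.7 CPM in PC-9GR and PC-9ER, against 179 CPM in PC-9, and 13.96 and 52.8 CPM in HCC827GR and HCC827ER, against 38.5 CPM in HCC827. Only HCC827ER lay above its parent (-0.85 ± 0.72 in the fit).

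The desaturases and elongases set PC-9GR apart, with all 5 above PC-9 in it (all genes 48.3%). FADS2 (9415, chromosome 11, 61792980 to 61867354, plus strand), the first desaturase of polyunsaturated fatty acid synthesis, had 1663 CPM in PC-9GR and 174 CPM in PC-9ER, against 140 CPM in PC-9, and 28.9 CPM in HCC827GR and 21.6 CPM in HCC827ER, against 40.3 CPM in HCC827. The level in PC-9GR was 11.9-fold that of PC-9, and no other line came near it. FADS1 (3992, chromosome 11, 61799625 to 61829318, minus strand), the desaturase of a later step, had 1193 CPM in PC-9GR and 142 CPM in PC-9ER, against 291 CPM in PC-9, and 142 CPM in HCC827GR and 99.6 CPM in HCC827ER, against 127 CPM in HCC827. The annotated FADS1 and FADS2 overlap on opposite strands, and whether the authors' counting used strand is not given, so reads of the pair may not be fully told apart. ELOVL2 (54898, chromosome 6, 10980759 to 11044314, minus strand), which lengthens long polyunsaturated chains, had 804 counts (45.1 CPM) in PC-9GR and 2 counts in PC-9ER, against 4 counts in PC-9, and 73 counts (4.87 CPM) in HCC827GR and 1 count in HCC827ER, against 39 counts (2.68 CPM) in HCC827. Both GR lines lay above their parents, and both ER lines were at or under 3 counts. Over both parents the fitted log2 fold changes of FADS2 (0.79 ± 1.22), FADS1 (0.61 ± 0.86) and ELOVL2 (1.78 ± 3.04) did not pass (adjusted p = 0.999 each, edgeR), and without PC-9GR they were -0.19, -0.43 and -0.42.

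SCD and ELOVL6, which act on saturated chains, were lower in the other 3 derived lines. SCD (6319, chromosome 10, 100347124 to 100364834, plus strand), the desaturase that makes oleate, had 5128 CPM in PC-9GR and 658 CPM in PC-9ER, against 3431 CPM in PC-9, and 313 CPM in HCC827GR and 480 CPM in HCC827ER, against 789 CPM in HCC827. ELOVL6, which extends palmitate to stearate, had 97.8 CPM in PC-9GR and 56.2 CPM in PC-9ER, against 78.5 CPM in PC-9, and 60.1 CPM in HCC827GR and 20.5 CPM in HCC827ER, against 122 CPM in HCC827 (log2 fold change -0.83 ± 0.56). PC-9ER had 0.192 times the SCD of PC-9 and 0.195 times its FASN, whereas its FADS2 was at 1.25 times the level of PC-9.

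**Figure D3:**
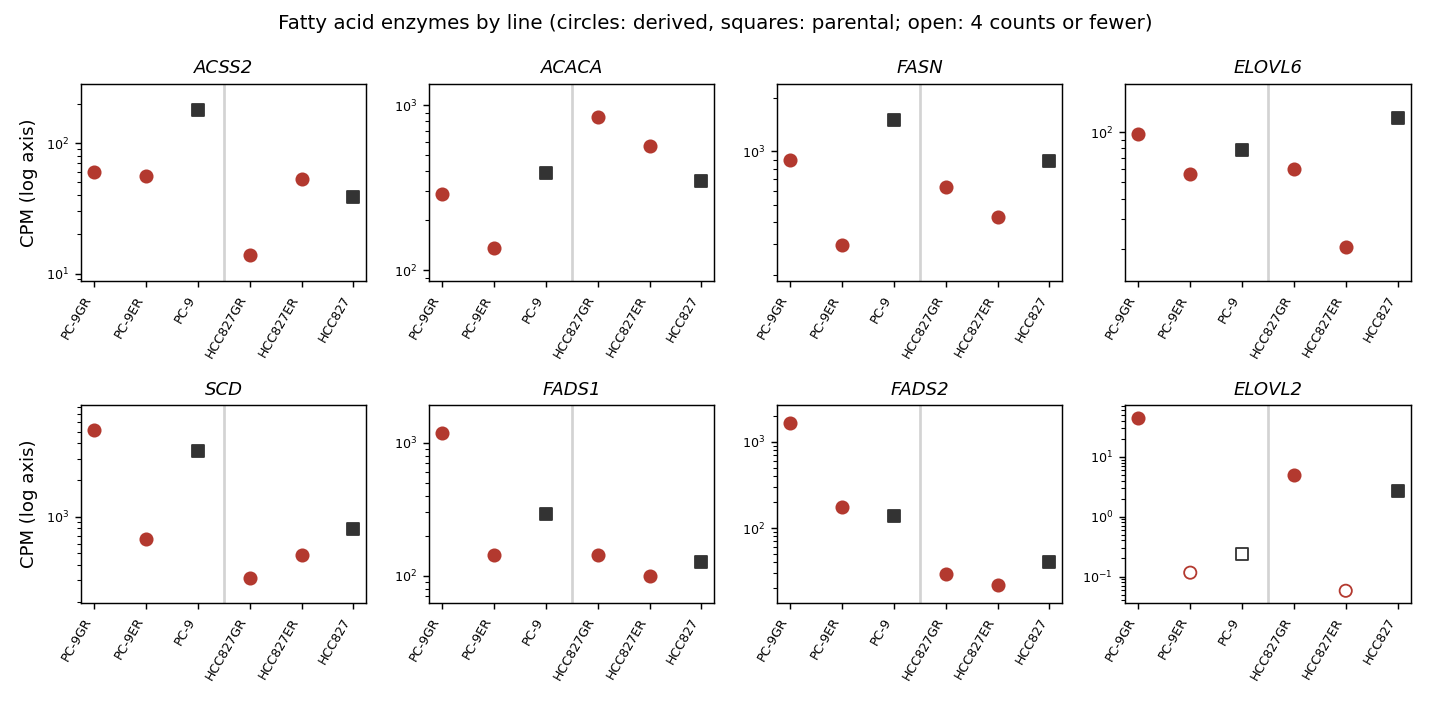
CPM of 8 fatty acid enzymes in each line on log axes of their own scale, circles for derived and squares for parental lines, with open symbols for 4 counts or fewer. FADS1 and FADS2 stand highest in PC-9GR at 1193 and 1663 CPM, ACACA circles lie below PC-9 and above HCC827, and ELOVL2 is near 0 in PC-9ER, PC-9 and HCC827ER.

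The branches were then compared within each library. In PC-9GR the sterol branch had a median log2 ratio of -0.69, with 14 of 18 enzymes below PC-9 (all genes 51.7%), and the fatty acid branch a median of 0.51, with 3 of 9 below, a difference of -1.20. In PC-9ER both branches were low: the medians were -0.95 and -1.04, with 18 of 18 and 8 of 9 below PC-9 (all genes 47%), a difference of 0.09. In HCC827GR the medians were -0.69 and -0.48, with 16 of 18 and 6 of 9 below HCC827 (all genes 45.1%), a difference of -0.22. In HCC827ER the sterol median was -0.27, close to the -0.33 of all genes, with 10 of 18 below HCC827 (all genes 62.7%). Under TMM scaling 7 of 18 were below (all genes 6658 of 13492). The fatty acid median there, without TMM scaling, was -0.90, with 7 of 9 below, a difference of 0.63. Relative to the median of all tested genes, the sterol branch of PC-9GR stood at -0.66 and its fatty acid branch at 0.53. The same values were -0.96 and -1.05 for PC-9ER, -0.74 and -0.52 for HCC827GR, and 0.06 and -0.57 for HCC827ER.

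Over the 4 pairs the sterol medians averaged -0.65 ± 0.28 and the fatty acid medians -0.48 ± 0.70 (SD, n = 4). The pairs of a parent share its library, so the 4 values are not independent and the SD is no spread of replicates. The difference averaged -0.17 ± 0.77, smaller than its spread, and it was 0.17 without PC-9GR. The widest differences were in PC-9GR (-1.20) and HCC827ER (0.63), in opposite directions, and those of PC-9ER and HCC827GR were close to 0; with 1 library a line, none was tested. The 2 ER libraries also share a deposited table that holds no other library, so ER and that table cannot be told apart. Within the sterol branch the mevalonate steps and the later steps had medians of -0.41 and -0.69 for PC-9GR, of -0.93 and -0.96 for PC-9ER, of -0.72 and -0.50 for HCC827GR, and of -0.27 each for HCC827ER.

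**Figure D4:**
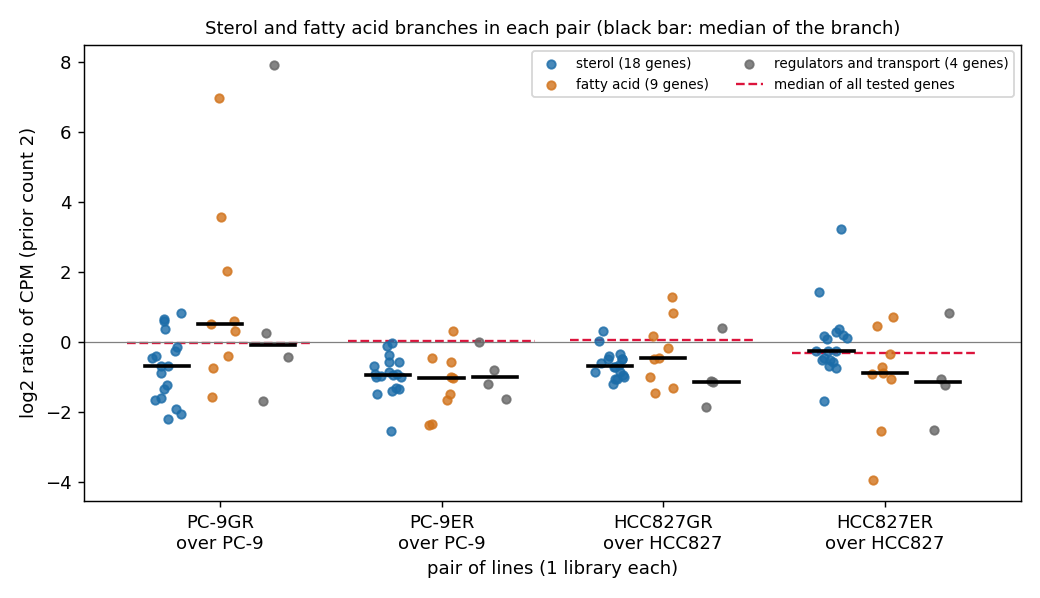
Log2 ratio of CPM over the parent for each gene (points), by branch and pair, with black bars for branch medians and dashed lines for the median of the 13492 tested genes. The sterol bar lies at or under -0.69 in 3 pairs and on the dashed line in HCC827ER, and the fatty acid bar lies above 0 in PC-9GR alone.

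By simple direction, higher levels were found for 12 of the 31 genes in PC-9GR (all genes 48.3%), 1 in PC-9ER (all genes 50.9%), 6 in HCC827GR (all genes 53.7%) and 11 in HCC827ER (all genes 37.3%). At least 2-fold lower levels were counted next. In PC-9GR they were found for 9 of the 31 genes (all genes 21.1%), 15 in PC-9ER (all genes 7.46%), 10 in HCC827GR (all genes 9.29%) and 7 in HCC827ER (all genes 27.7%). At least 2-fold higher levels were found for 4 in PC-9GR (all genes 19.6%), 0 in PC-9ER (all genes 5.73%), 1 in HCC827GR (all genes 8.26%) and 2 in HCC827ER (all genes 11.4%). PC-9ER, with the fewest tested genes past 2-fold in all, thus had the most genes of the pathway in the lower class, 7 of 18 in the sterol branch and 6 of 9 in the fatty acid branch.

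Within PC-9, PC-9GR and PC-9ER together against PC-9 gave 0 of 31 called by edgeR (all genes 0%), with HMGCS1 and SC5D under an unadjusted 0.05 (all genes 0.964%). DESeq2 called STARD4 (all genes 0.674%), with 5 of 31 under an unadjusted 0.05 (all genes 4.62%), and limma-voom called none (all genes 0%), with 2 of 31 under it (all genes 1.44%). The 2 lowest fitted log2 fold changes were those of TM7SF2 (-2.35 ± 1.46) and HMGCS1 (-1.68 ± 0.61), and the 2 highest, STARD4 and ELOVL2, rest on 0 to 4 counts in PC-9 and PC-9ER and are no bounds. With PC-9ER left out, which sets the 1 library of PC-9GR against the 1 of PC-9, edgeR called 3 of the 31 (ELOVL2, FADS2 and STARD4; all genes 7.58%), a share near that of all genes. Within HCC827, edgeR, DESeq2 and limma-voom called 0 of 31 (all genes 0%, 0.311% and 0%), with 0 under an unadjusted 0.05 in each (all genes 1.45%, 2.97% and 1.32%). The highest fitted changes there were TM7SF2 (2.67 ± 1.76) and PMVK (1.22 ± 0.98), and the lowest were STARD4 (-1.62 ± 2.74) and ELOVL6 (-1.53 ± 0.74). TM7SF2 rests on HCC827ER, without which it was at -0.55.

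The difference between the HCC827 and PC-9 changes was called for 0 of 31 by edgeR (all genes 0%; none under an unadjusted 0.05, all genes 0.882%) and limma-voom (all genes 0%; none under it, all genes 0.556%), and for STARD4 by DESeq2 (all genes 0.185%; 2 under it, all genes 2.68%). ER against GR lines gave 0 of 31 by edgeR (all genes 0%), with ELOVL2 under an unadjusted 0.05 (all genes 6.9%). Without HCC827GR edgeR called 4 of the 31 lower in ER lines (ELOVL2, FADS1, FADS2 and STARD4; all genes 9.55%). DESeq2 called ELOVL2 (adjusted p = 0.000463; all genes 2.48%), with 6 under an unadjusted 0.05 (all genes 12.4%), and limma-voom called none (all genes 0%), with 1 under it (all genes 9.26%). The fitted ER minus GR values were highest for TM7SF2 (2.86) and ACSS2 (1.26) and lowest for ELOVL2 (-7.85) and STARD4 (-7.61). TM7SF2 and ACSS2 were at -0.87 and -0.17 without HCC827ER. ELOVL2 and STARD4 were at -4.38 and -0.95 without PC-9GR. The fit without HCC827GR keeps PC-9GR as its only GR library. Its 4 calls thus cannot tell a difference of ER lines from the levels of PC-9GR. STARD4 had 0 counts in PC-9ER, so its fitted value is no bound.

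The parents themselves differed in this pathway, with 1 library each and so no test. HCC827 had a lower level than PC-9 for 25 of the 31 genes (all genes 48.2%), 17 of them by at least 2-fold (all genes 18.8%), with a median log2 ratio of -1.06. The sterol branch was at -1.11 and the fatty acid branch at -0.77, beside 0.04 over all tested genes. The largest gaps in the sterol branch were TM7SF2 (-3.75), HMGCS1 (-2.58) and SQLE (-2.53), and SREBF2 was at -2.09. SCD was at 789 CPM in HCC827, against 3431 CPM in PC-9. ELOVL2 was higher in HCC827, at 2.68 CPM against 0.237 CPM in PC-9. Both PC-9 derivatives lay between PC-9 and HCC827 for HMGCS1, at 228 and 360 CPM, and for TM7SF2, at 16.3 and 12.8 CPM.

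Of 71 further genes around the pathway, taken as lists beside the members, 69 were listed and 64 tested, and edgeR called 0 of them in each of the 5 comparisons (all genes 0% in each). DESeq2 called 1 of the 64, MID1IP1, in the PC-9 comparison (all genes 0.674%) and 0 in the others, and limma-voom called 0 in each (all genes 0%).

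Genes lower than the parent in every pair (all genes 12.4%) were 1 of 11 in the list of SREBP processing, 1 of 6 liver X receptor and ChREBP genes, 4 of 22 other fatty acid enzymes and 1 of 7 glycerolipid genes. The 4 fatty acid genes were TECR, a reductase of chain elongation, and ACSL3, ACSL4 and ACSL5, which join fatty acids to coenzyme A, and they were named after their values were seen. Under TMM scaling ACSL3 and ACSL5 were the 2 that stayed lower in every pair (all genes 11.5%), and none of the 11 SREBP processing genes did. SCAP, the escort of the SREBPs, named after its values were seen, had log2 ratios between -0.32 and 0.24. LPIN1, a phosphatidate phosphatase named after its values were seen, had 135 and 71.8 CPM in PC-9GR and PC-9ER, against 256 CPM in PC-9, and 24.1 and 20.2 CPM in HCC827GR and HCC827ER, against 63.5 CPM in HCC827 (-1.33 ± 0.37). SCD5, another stearoyl-CoA desaturase, was also named after its values were seen. It had 18.1 and 17.5 CPM in PC-9GR and PC-9ER, against 5.03 CPM in PC-9. In the other background it had 0.935 and 1.68 CPM in HCC827GR and HCC827ER, against 0.551 CPM in HCC827 (1.66 ± 0.67 over both parents). SCD5 and HACD1 were the 2 of 22 other fatty acid enzymes higher than the parent in every pair (all genes 9.92%). MID1IP1, which promotes assembly of acetyl-CoA carboxylase, repeated the pattern of STARD4: 1392 counts in PC-9GR and 0 counts in PC-9ER, against 0 counts in PC-9, at least 440-fold higher in PC-9GR than in PC-9, and it too was named after its values were seen.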

How the data were processed

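RNA-seq counts per gene were deposited for 6 lines, 1 library each, in 2 side-by-side tables of 16854 genes (PC-9, PC-9GR, HCC827 and HCC827GR) and 16306 genes (PC-9ER and HCC827ER). The deposited values are estimated counts, of which 13.2% to 14.3% per library are not whole; the submitters' processing notes name HISAT2 2.0.4, Cuffdiff and GRCh38.p13, and the counting program, its strand setting and the reason for the decimals are not given in the sources used here. The 16000 genes in both tables were rounded and used; 854 and 306 were left out.

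CPM was computed on library totals over these genes, and pair log2 ratios with a prior count of 2. Differences were tested across 13492 genes with edgeR 4.0.16 (R 4.3.3; quasi-likelihood, robust, TMM, line of origin as a block, Benjamini-Hochberg adjustment, threshold 0.05). The SE printed with an edgeR log2 fold change is its absolute value divided by the square root of its F statistic. Each comparison had its own fit, which all libraries entered. Derived against parental lines had 1 derived effect beside origin. The comparisons within a parent, and their difference, had 1 derived effect per parent. ER against GR lines had separate ER and GR effects beside origin. Residual degrees of freedom were 3 for derived against parental lines and 2 otherwise. DESeq2 1.42.0, limma-voom (limma 3.58.1), DESeq2 size factors, no filter, no ribosomal protein genes, no origin block and each library left out were alternatives. Floors of 3 counts cover counting error only.

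The genes described and the lists around them were chosen with earlier results of these data known. Named genes were HMGCS1, INSIG1, SREBF1, SREBF2, STARD4, those called, those with 1 direction in all pairs, and the 3 largest fitted changes each way per branch (2 in other comparisons); others were named after their values were seen. Decimals occurred in the counts of 6 of the 31 genes. A few items fixed by that rule, and the lists that hold them, are not reported here.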

Additional observations from a re-analysis of the deposited data

Results flagged for a closer look

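ELOVL4, an elongase of very long fatty acid chains, is listed only in the first of the deposited tables and so entered no comparison. It had 2.69 CPM (48 counts) in the library labelled PC-9GR, against 0 counts in PC-9, and 0 counts in HCC827GR, against 0 counts in HCC827. It was singled out because its signal lay outside the genes compared and above the level of the parental lines.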

How the results depend on the processing

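Lines were paired by origin, which entered the fits as a block; with no origin block the count for derived against parental lines was 0 again. Beyond origin, the labels give no replicate numbers by which to pair libraries. In place of 0 genes of the pathway, DESeq2 called 1 for derived against parental lines (HMGCS1), 1 within PC-9 (STARD4), 1 for the difference between the HCC827 and PC-9 changes (STARD4) and 1 for ER against GR lines (ELOVL2). With each library left out, counts called within PC-9 and for the difference of the 2 backgrounds moved from 0 only without PC-9ER. Between ER and GR lines they moved only without HCC827GR. In each case 1 arm then held PC-9GR alone. The number of genes lower in every pair, a count added after the data were seen, ran between 9 and 19. It was 15 without PC-9GR and 16 without HCC827ER, over 3 pairs each (all genes 17.4% and 15%). It was 17 without PC-9 and 19 without HCC827, where only the 2 pairs of the other parent remain. No share over all genes was computed for 2 pairs, so 17 and 19 cannot be set beside the 9 over 4 pairs. The sterol minus fatty acid difference ran between -0.55 and 0.21, positive without PC-9GR (0.17) and PC-9 (0.21); the sterol mean ran between -0.82 and -0.48 and the fatty acid mean between -0.80 and -0.27.

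The STARD4 change turned to -0.72 with limma-voom and -0.036 with no origin block. With each library left out, the derived against parental change ran between -1.17 and 0.81 for SREBF2, -1.62 and 10.91 for STARD4, -0.42 and 6.57 for ELOVL2, -0.54 and 2.76 for FADS2, -0.43 and 1.23 for FADS1, and -1.61 and 0.075 for ACSS2. Elsewhere it ran between -0.98 and 7.57 for ELOVL2 within PC-9, -0.55 and 3.59 for TM7SF2 within HCC827, -11.63 and 0.81 for ELOVL2 in the difference, and -0.87 and 4.51 for TM7SF2 and -0.17 and 2.33 for ACSS2 in ER against GR. The cause was not tested. Where an arm keeps 1 library, that library is assumed to vary like the others. Depth limits STARD4 and ELOVL2, at 0 to 4 counts in several libraries.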
